A study of Macaca fascicularis with 23 samples.

Results

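Growth hormone from the pituitary acts on the liver through its receptor, GHR, and makes hepatocytes secrete insulin-like growth factor 1 (IGF1) and the acid-labile subunit (IGFALS). In blood most IGF1 is held in a complex of IGF1, IGFBP3 and the acid-labile subunit, while other binding proteins such as IGFBP1, IGFBP2 and IGFBP4 bind it in smaller complexes. IGFBP1 is a liver product repressed by insulin, and IGFBP2 is higher in the liver in fasting and in low growth hormone states in rodents and humans.

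The liver levels of these 7 genes are described here, as measured by 13 of the 12625 probe sets of a human gene array. The probe sets are all those whose array annotation names GHR, IGF1, IGFALS, IGFBP1, IGFBP2, IGFBP3 or IGFBP4. There were 4 for IGF1, 2 each for IGFBP2, IGFBP3 and IGFBP4, and 1 each for GHR, IGFALS and IGFBP1. The genes were chosen on their intensities in the dose and day groups of these same animals, so their levels and their differences from vehicle are given as a description, with no test. In all, 12 of the 13 probe sets passed the filter on low intensity (a mean of at least 39.7 on the back-transformed log2 scale), and the dimmest of the 4 IGF1 probe sets lay below it. Where a gene had several, the one with the highest mean represents it, and the others are called the dimmer, or for IGF1 the second, the third and the dimmest, by their mean.

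The animals were cynomolgus monkeys (Macaca fascicularis), and each of 23 arrays held liver RNA, from the right lateral lobe, of a separate animal. Ciprofibrate, a lipid-lowering fibrate and PPAR-alpha agonist, was given for 15 days at doses of 3, 30, 150 and 400 mg/kg/day (4 animals each) or for 4 days at 400 mg/kg/day (2 animals). The controls received vehicle only, for 15 days (3 animals) or for 4 days (2 animals). No gene was altered in any group, and the labels used here do not give sex, age or feeding state. Because the array's probes were designed for human transcripts, intensities are compared between animals within a probe set and not between genes. The exception is the sums of cell type markers below, in which brighter probe sets weigh more.

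All arrays had been scaled to the same trimmed mean intensity (150.065 to 150.08), and array medians ran from 55 to 71.6. Albumin (ALB) marked the tissue as liver, at 23610 ± 1993 (SD, n = 4) at 400 mg/kg/day over 15 days and 23515 ± 1606 (SD, n = 3) in vehicle animals of that day. The ACTB 5' over 3' intensity ratio, a sign of RNA integrity, was 0.681 ± 0.126 (SD, n = 4) and 0.574 ± 0.033 (SD, n = 3) in these groups, and 1.12 ± 0.13 and 0.868 ± 0.170 (SD, n = 2 each) at 400 mg/kg/day and in vehicle animals at 4 days. Precision is limited by how few arrays each group has, with 2 a group at 4 days.

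At 400 mg/kg/day over 15 days, on the probe set that represents each gene, IGFALS, IGF1, GHR and IGFBP3 were lower than in vehicle animals. IGFBP2 was higher, and IGFBP1 and IGFBP4 overlapped vehicle. The dimmer probe set of IGFBP3 overlapped vehicle, and that of IGFBP4 was lower without overlap. Of the 13 probe sets, 9 had treated and vehicle animals that did not overlap, 7 of them lower and 2 higher in treated animals, where 13.2% of the 7535 probe sets tested did not overlap in either direction. With 1 probe set a gene these were 5 of 7 genes. Since this contrast was among those that chose the genes, nothing is read from that count.

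IGFALS, the acid-labile subunit that keeps the circulating complex from leaving the blood, had the lowest treated level relative to vehicle of the 7. Its intensities were 263.8, 269.1, 242.8 and 368.8 in the animals on 400 mg/kg/day, against 851.4, 1619.5 and 1453.9 in vehicle animals. Every treated animal was thus below the lowest vehicle animal, and the treated animals lay close together. The difference was -2.10 ± 0.33 (SE) on the log2(intensity + 16) scale, or 4.28-fold lower. At 4 days IGFALS was at 954.1 and 369.5 in the animals on 400 mg/kg/day and at 2104.1 and 1172.7 in vehicle animals, a difference of -1.38 ± 0.43 (SE). These groups also did not overlap, although the vehicle animals spanned a wide range.

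**Figure D1:**
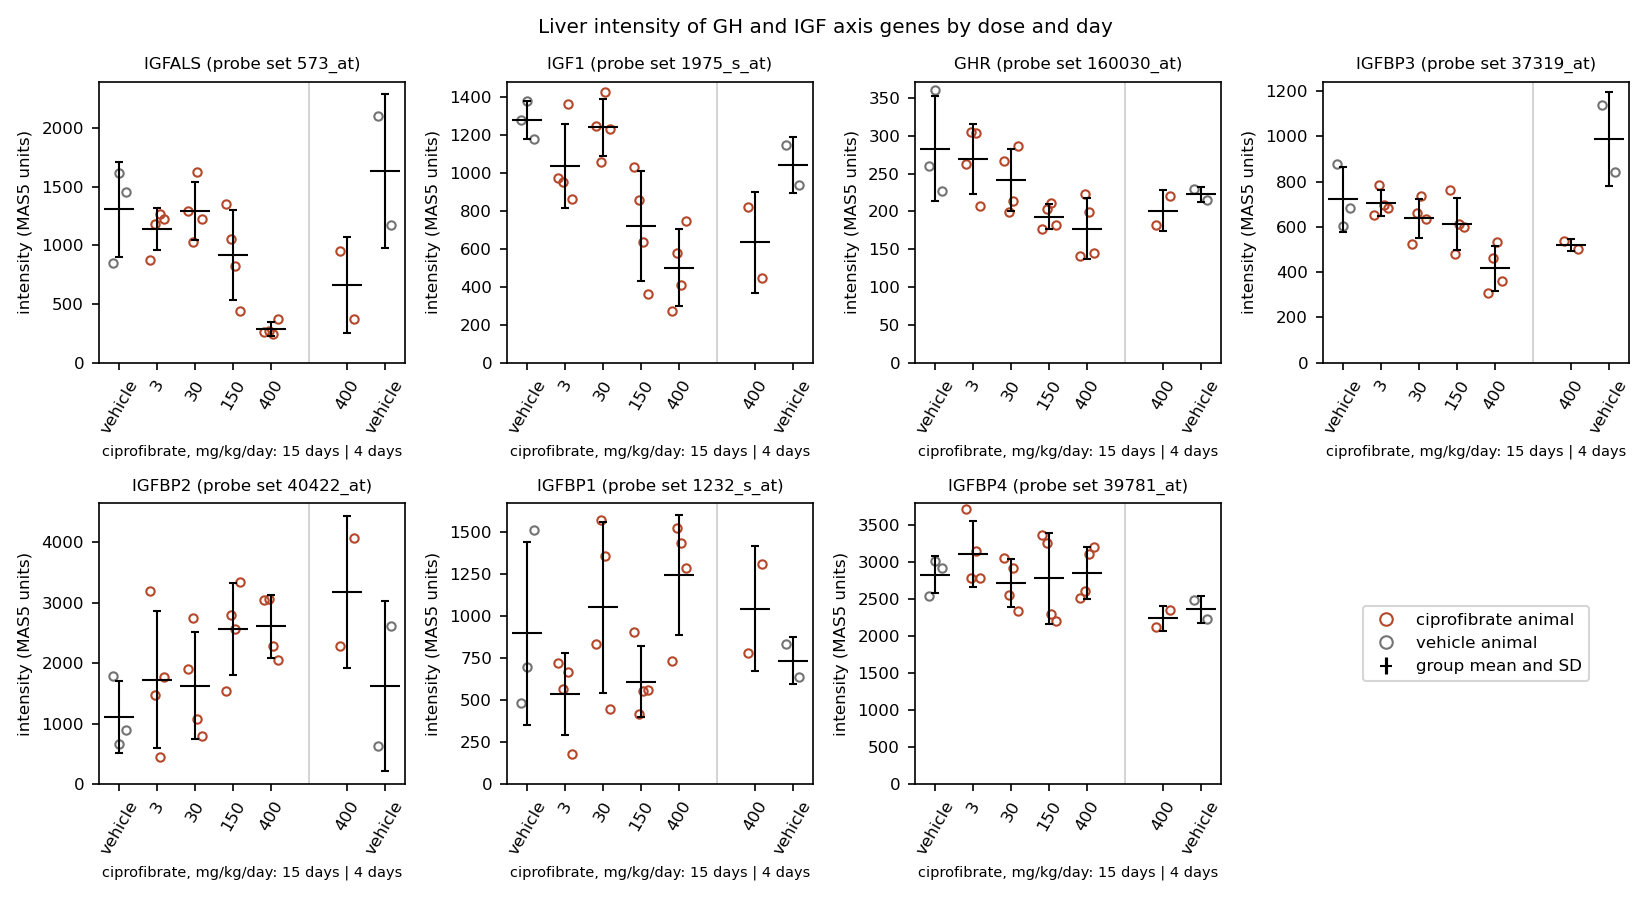
Intensity (MAS5 units, linear axis from 0) of the 7 genes in each animal by ciprofibrate dose, with the 15-day groups left of the grey line and the 4-day groups right of it; open circles are animals, the horizontal mark is the group mean and the bar its SD. IGFALS averaged 286.1 at 400 mg/kg/day over 15 days and between 919.1 and 1308 in the other 15-day groups.

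The IGFALS level did not step down evenly with dose. At 15 days it averaged 1308 ± 404 in vehicle animals (SD, n = 3), 1138 ± 180 at 3 mg/kg/day, 1293 ± 248 at 30 mg/kg/day, 919.1 ± 385 at 150 mg/kg/day and 286.1 ± 56.3 at 400 mg/kg/day (SD, n = 4 each). The 150 mg/kg/day animals spread from 443 to 1355.3, so that 1 of them lay near the animals on 400 mg/kg/day and the other 3 within or just below the vehicle range. From 150 to 400 mg/kg/day the difference was -1.54 ± 0.30 (SE, log2). In the order of the 7 group means, from vehicle at 4 days down to 400 mg/kg/day at 15 days, 0 of the 6 steps between neighbours exceeded the larger of the 2 SDs. The whole range, 1638 to 286.1, was larger than any group's SD.

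IGF1, the growth factor itself, had intensities of 273.2, 577.3, 408.3 and 743.4 on its brightest probe set at 400 mg/kg/day over 15 days. The vehicle animals of that day had 1277.2, 1377.8 and 1176.3. The groups did not overlap, and the difference was -1.41 ± 0.30 (SE, log2). At 150 mg/kg/day the values were 1031.3, 857.7, 632.7 and 360.4, also all below vehicle, with a difference of -0.91 ± 0.30. On this probe set IGF1 was thus below every vehicle animal at 150 mg/kg/day, which did not hold for the other 3. At 3 and 30 mg/kg/day it averaged 1037 ± 221 and 1239 ± 150 (SD, n = 4 each), which overlapped the vehicle mean of 1277 ± 101 (SD, n = 3). At 4 days IGF1 was at 821.5 and 444.9 in animals on 400 mg/kg/day and at 1144.8 and 934.6 in vehicle animals, a difference of -0.76 ± 0.40. Ordered by mean, 2 of the 6 steps exceeded the larger SD, from 30 mg/kg/day down to vehicle at 4 days and from 3 down to 150 mg/kg/day.

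The other IGF1 probe sets had lower intensities. At 15 days the second was at 14.7, 59.9, 31.3 and 45.3 at 400 mg/kg/day and at 85.6, 294.7 and 128.5 in vehicle animals (-1.70 ± 0.44), and the third differed by -1.98 ± 0.62, in both cases without overlap. The treated values of the second lie around the filter's intensity of 39.7. Those of the third, from 2.4 to 32.8, all lie below it. The third passed the filter on its mean over all arrays, with vehicle animals of that day at 120.3 ± 87.9 (SD, n = 3). The sizes are therefore not exact, and nothing is read from the third probe set's lack of overlap. The dimmest, below the filter, differed by -0.71 ± 0.47 with overlapping groups. At 150 mg/kg/day the second, the third and the dimmest differed by -1.10 ± 0.44, -0.97 ± 0.62 and -0.27 ± 0.47, each with animals that overlapped vehicle. Over the 23 arrays the 3 probe sets above the filter had correlations between 0.74 and 0.83 with each other (Pearson's r on the log2 scale), and the dimmest had 0.13 to 0.25 with them.

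**Figure D2:**
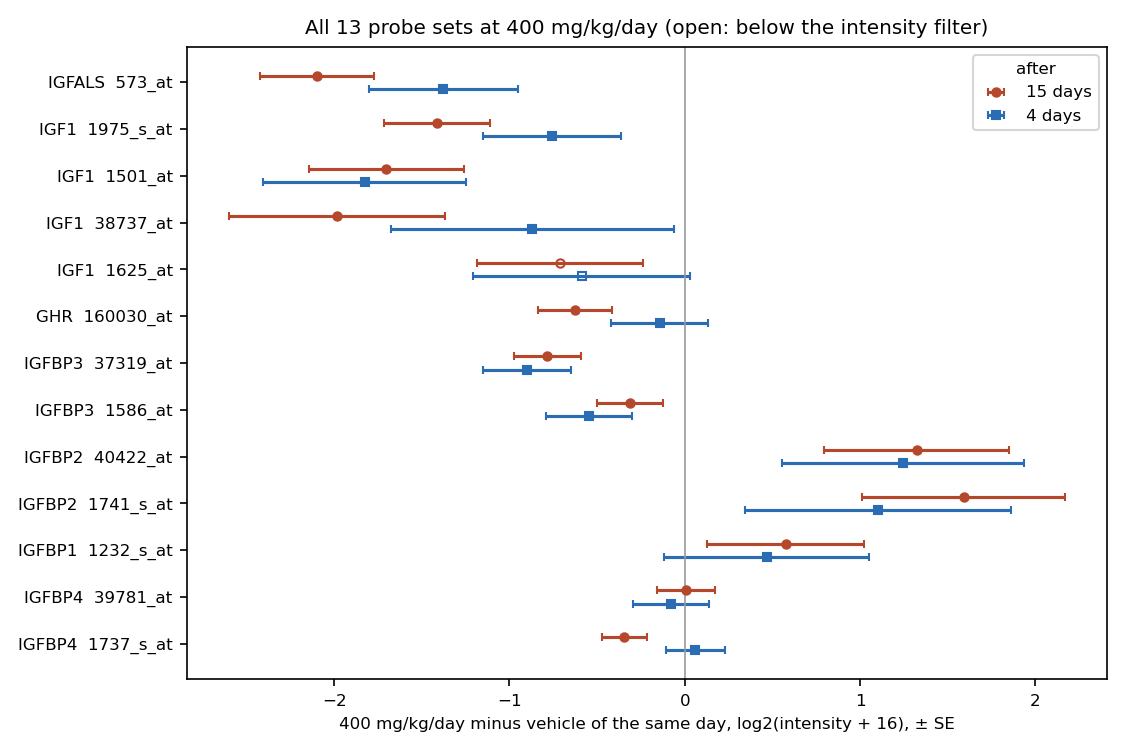
Difference from vehicle of the same day at 400 mg/kg/day, on the log2(intensity + 16) scale with its SE, for each of the 13 probe sets after 15 days (red circles) and 4 days (blue squares); the open symbols mark the probe set below the intensity filter. All 4 IGF1 probe sets lie left of 0 and both IGFBP2 probe sets right of it on both days, while the IGFBP4 probe sets differ from each other at 15 days.

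GHR, the hepatic receptor for growth hormone, was at 141.2, 222.9, 199.7 and 144.7 at 400 mg/kg/day over 15 days and at 260.4, 360.5 and 227.1 in vehicle animals. The groups did not overlap, but the nearest animals, at 222.9 and 227.1, almost met, and the difference was -0.63 ± 0.21 (SE, log2). At 150 mg/kg/day GHR was at 176, 203, 210.7 and 182.4, all below the vehicle animals (-0.49 ± 0.21). The means at 3 and 30 mg/kg/day were 269.2 ± 45.9 and 241.2 ± 41.4 (SD, n = 4 each), which overlapped the 282.7 ± 69.4 (SD, n = 3) of vehicle. At 4 days the values were 181.4 and 220 in treated and 229.2 and 215.6 in vehicle animals, which overlapped (-0.14 ± 0.28). In the order of the 7 means no step between neighbours exceeded the larger SD.

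IGFBP3, the binding protein of the large complex, is made in liver mainly by non-parenchymal cells. On its brighter probe set it was at 308.2, 461.1, 532.3 and 362 at 400 mg/kg/day over 15 days, against 879, 602.1 and 682.7 in vehicle animals, without overlap (-0.78 ± 0.19, SE, log2). The dimmer probe set was at 289.1, 512, 489.4 and 386.5 against 520.6, 522.4 and 494.1, and these groups overlapped (-0.31 ± 0.19). With 150 mg/kg/day the order of the probe sets turned round, with overlap on the brighter (-0.23 ± 0.19) and none on the dimmer (-0.33 ± 0.19). At 4 days both probe sets were lower in treated animals without overlap (-0.90 ± 0.25 and -0.55 ± 0.25). IGFBP3 at 4 days was 518.7 ± 26.4 in treated and 990 ± 208 in vehicle animals (SD, n = 2 each) on the brighter.

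Levels of markers of other liver cells are given beside IGFBP3, with the 400 mg/kg/day animals at 15 days first and vehicle animals after them. Of all 7535 tested probe sets limma called 2.14% in this comparison. No such share was computed for sums, so nothing is read from marker calls or from sums that do not overlap. The summed intensity of 10 measured sinusoidal endothelial markers (of 14 listed) ran from 1960 to 2448 and from 2919 to 3215. On the log2 scale the 10 had differences from -1.04 to -0.04, with a median of -0.66, and limma called 0 (5 at an unadjusted p under 0.05). The smallest was that of CD34, whose mean intensities were 391.9 and 388.2. At 3, 30 and 150 mg/kg/day the endothelial sum averaged 2537 ± 459, 2652 ± 258 and 2450 ± 379 (SD, n = 4 each). In vehicle animals it averaged 3097 ± 157 (SD, n = 3). IGFBP3, on its brighter probe set, differed from vehicle by -0.02, -0.17 and -0.23 at these doses, and a link with the sums was not tested.

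For 9 Kupffer cell and macrophage markers (of 12 listed) the sums ran from 2828 to 3722 and from 4204 to 5607, with 7 of 9 lower on the log2 scale, CSF1R and AIF1 higher, and limma calling 0 (3 at an unadjusted p under 0.05). Much of the gap in that sum was CD14, at 1851 ± 338 (SD, n = 4) and 3039 ± 1004 (SD, n = 3). For 10 stellate cell and fibroblast markers (of 14 listed) the sums ran from 2042 to 2871 and from 3186 to 5934, with 8 of 10 lower, ACTA2 and TAGLN higher, and TIMP1 called. Much of that gap was BGN, at 1587 ± 338 (SD, n = 4) and 3010 ± 1414 (SD, n = 3). For 5 cholangiocyte markers (of 8 listed) the sums ran from 945.2 to 1112 and from 939.7 to 1127.

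The 13 hepatocyte markers had a median difference of 0.00, with 7 higher and 6 lower. Their sums were 64380 to 72888 at 400 mg/kg/day and 86147 to 88056 in vehicle animals. Most of this gap was CYP2E1, the single called marker, at 1479 ± 859 (SD, n = 4) and 13669 ± 1635 (SD, n = 3), followed by SERPINA1, at 20561 ± 1447 and 24838 ± 3977. At 4 days the endothelial sums overlapped, at 2362 to 2728 in treated and 2666 to 2877 in vehicle animals. So did the cholangiocyte sums, at 811.2 to 956.4 and 936 to 1042. The Kupffer sums did not, at 3168 to 3645 and 4263 to 5544. Nor did the stellate sums, at 2025 to 2283 and 2826 to 2990, or the hepatocyte sums, at 60459 to 61623 and 73361 to 74420. With 2 animals a group, 42% of all tested probe sets did not overlap at 4 days. Some markers were dim, with lowest values over the arrays of 5.1 for VWF and 11.5 for CD5L and TIE1. Whether these were detected on every array was not tested. In whole liver RNA, fewer cells of a type and less RNA per cell cannot be told apart, and the part of these cells in the values of the 7 genes was not tested.

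IGFBP2, a binding protein made by hepatocytes, was on the higher side. On its brighter probe set it was at 3040, 3052.2, 2286.4 and 2048.6 at 400 mg/kg/day over 15 days, against 1779.7, 663.4 and 887 in vehicle animals. The groups did not overlap, and the difference was 1.32 ± 0.53 (SE, log2), or 2.50-fold. At 150 mg/kg/day IGFBP2 was at 1532.4, 2800.7, 2567.1 and 3346.4 (1.26 ± 0.53), where 1 animal overlapped vehicle. At 3 and 30 mg/kg/day the means were 1722 ± 1134 and 1628 ± 882 (SD, n = 4 each), with animals from 453.9 to 3198.8. At 4 days it was at 2285.1 and 4066.4 in treated and at 621.2 and 2611.3 in vehicle animals, which overlapped (1.24 ± 0.69). The vehicle animals of each day thus differed widely among themselves. The dimmer probe set followed the brighter closely (r = 0.95 over 23 arrays) and differed by 1.59 ± 0.58 at 400 mg/kg/day over 15 days.

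IGFBP1, a secreted liver protein whose gene is switched off by insulin, varied more within groups than between them. It was at 730.7, 1526.3, 1437.1 and 1288.6 at 400 mg/kg/day over 15 days and at 482.6, 696.7 and 1512.4 in vehicle animals, with a difference of 0.58 ± 0.45 (SE, log2). Its lowest group mean was that at 3 mg/kg/day, 534.9 ± 245 (SD, n = 4), and its highest that at 400 mg/kg/day over 15 days, 1246 ± 357 (SD, n = 4). In this order 30 mg/kg/day, at 1053 ± 509 (SD, n = 4), came next to 400 mg/kg/day, and 150 mg/kg/day, at 609.2 ± 210 (SD, n = 4), next to 3 mg/kg/day, so the order did not follow dose. The groups overlapped vehicle of the same day at every dose and on both days.

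IGFBP4, a binding protein that can hold IGF1 away from its receptor, gave different answers on its 2 probe sets. On the brighter it averaged 2856 ± 350 at 400 mg/kg/day over 15 days (SD, n = 4) and 2829 ± 249 in vehicle animals (SD, n = 3), a difference of 0.01 ± 0.17 (SE, log2). On the dimmer it was at 1398.1, 1546.4, 1655.7 and 1636.8 against 1789.8, 2148.2 and 2017.8, without overlap (-0.34 ± 0.13). At 3, 30 and 150 mg/kg/day this second probe set was a little higher than vehicle, by 0.15 to 0.21. Over all 23 arrays the probe sets had an r of 0.13 with each other, against 0.64 after each group's mean was subtracted, so they varied together among the animals of a group but not between groups. Its direction at the highest dose therefore depends on the probe set, and which transcript regions the 2 cover was not analysed here.

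**Figure D3:**
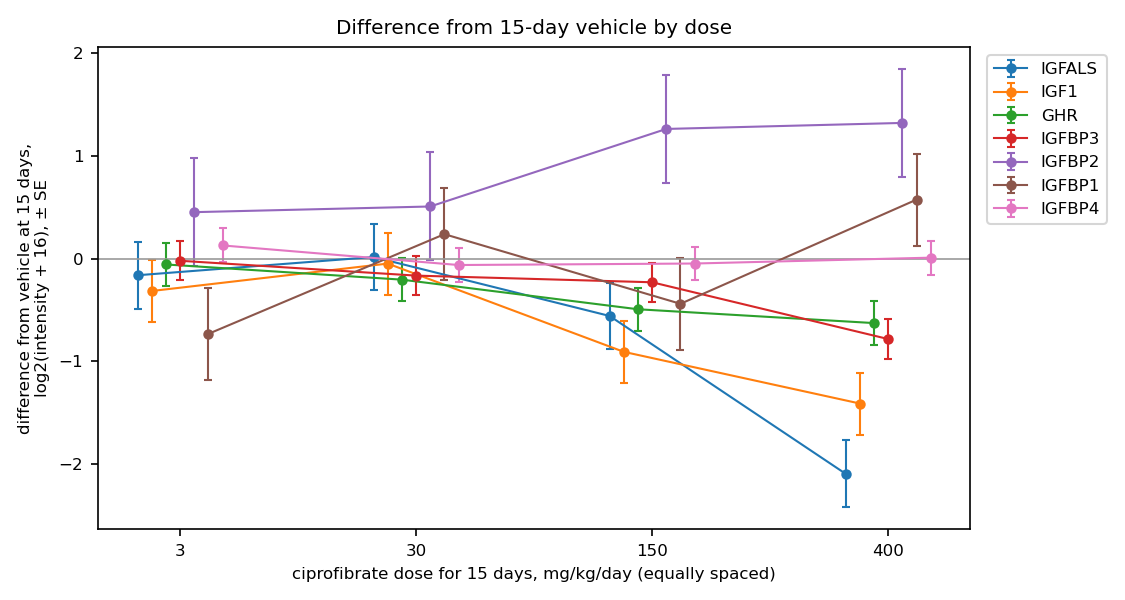
Difference of each gene from 15-day vehicle animals at 3, 30, 150 and 400 mg/kg/day, on the log2(intensity + 16) scale with its SE, for 1 probe set a gene; the doses are equally spaced on the axis and all differences share the same 3 vehicle animals. IGFALS is near 0 at 30 mg/kg/day and at -2.10 at 400 mg/kg/day, IGFALS, IGF1 and GHR lie at -0.56, -0.91 and -0.49 at 150 mg/kg/day, and IGFBP2 lies above 0 at all 4 doses.

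Probe sets that stood apart from vehicle, without overlap, were also counted at the lower doses and at 4 days. These contrasts were among those that chose the genes as well, so nothing is read from the counts. On 150 mg/kg/day 3 of the 13 did not overlap vehicle, those of GHR, the brightest of IGF1 and the dimmer of IGFBP3, all lower, where 10.1% of all tested probe sets did not overlap. At 30 mg/kg/day 0 of 13 stood apart, where 8.07% of all did. At 3 mg/kg/day 1 did, the dimmer of IGFBP3, which was higher by 0.13 ± 0.19, where 8.91% of all did. At 400 mg/kg/day over 4 days 6 of 13 did not overlap, all lower, but with 2 animals a group 42% of all tested probe sets did not overlap either. These 6 were IGFALS, 3 probe sets of IGF1 and both of IGFBP3. The slopes over the 5 dose steps at 15 days, in log2 units a step, were -0.46 ± 0.07 for IGFALS, -0.34 ± 0.07 for IGF1, -0.18 ± 0.04 for IGFBP3, -0.17 ± 0.05 for GHR, -0.02 ± 0.04 for IGFBP4, 0.14 ± 0.10 for IGFBP1 and 0.35 ± 0.12 for IGFBP2 (SE).

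The 15-day and 4-day effects of 400 mg/kg/day can be set side by side, since each has its own vehicle animals. The 15-day minus 4-day difference was -0.72 ± 0.54 (SE, log2) for IGFALS, -0.65 ± 0.50 for IGF1 and -0.49 ± 0.35 for GHR, and between 0.08 and 0.11 for the 4 binding proteins, with SEs of 0.27 to 0.87. These values are for the probe set that represents each gene. Over the other IGF1 probe sets the difference ran from -1.11 ± 1.02 to 0.12 ± 0.73. On the dimmer probe sets it was 0.49 ± 0.95 for IGFBP2, 0.23 ± 0.31 for IGFBP3 and -0.40 ± 0.21 for IGFBP4. For IGF1 and IGFBP4 the sign thus depended on the probe set. On the representing probe sets the values also depended on single animals. Without 1 animal at a time the value ran from -1.09 to -0.22 for IGF1 and from -0.62 to -0.31 for GHR. For IGFALS it was -0.06 without replicate 1 of the treated 4-day group and -1.39 without replicate 2. For IGFBP2 it was 1.10 without vehicle replicate 1 and -0.94 without vehicle replicate 2 of the 4-day animals. The differences at 4 days moved likewise, from -2.04 to -0.71 for IGFALS, from -1.19 to -0.33 for IGF1, from -0.27 to -0.01 for GHR, from 0.10 to 0.83 for IGFBP1 and from 0.22 to 2.27 for IGFBP2 without 1 animal. The vehicle animals of the 15-day group differed from those of the 4-day group by -0.31 ± 0.39 for IGFALS, 0.30 ± 0.36 for IGF1 and -0.45 ± 0.23 for IGFBP3.

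How the genes varied between animals of the same group was not used to choose them and was tested. Each gene's log2 value had its group's mean subtracted, and values were permuted within groups 100000 times for all 21 pairs of the 7 genes. IGF1 and IGFALS varied together, with Pearson's r = 0.75 (two-sided permutation p = 0.00047, 0.00735 after Benjamini-Hochberg adjustment over 21 pairs) and Spearman's rho = 0.73 (permutation p = 0.00152, adjusted 0.016) over 23 animals. An animal with more IGF1 than the others of its group thus tended to have more IGFALS. Without the 2 animals farthest from the median of IGF1, r was 0.74 (adjusted permutation p = 0.0336).

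IGFBP2 varied the opposite way. Its r with IGFALS was -0.66 (permutation p = 0.0007, adjusted 0.00735) and rho was -0.77 (permutation p = 0.00016, adjusted 0.00336), and without the 2 animals farthest from the median of IGFALS r was -0.74 (adjusted permutation p = 0.0336). With IGF1, IGFBP2 had r = -0.49 (permutation p = 0.00185, adjusted 0.0129) and rho = -0.58 (permutation p = 0.00549, adjusted 0.0384). That pair no longer passed without the 2 animals farthest from the median of IGF1 (r = -0.56, adjusted permutation p = 0.0547) or without replicate 3 at 3 mg/kg/day (r = -0.43, adjusted permutation p = 0.0814). In the 150 mg/kg/day group, for example, replicate 1 had the highest IGFALS and IGF1 (1355.3 and 1031.3) and the lowest IGFBP2 (1532.4). Replicate 4 had the lowest IGFALS and IGF1 (443 and 360.4) and the highest IGFBP2 (3346.4). Not every group followed this. At 400 mg/kg/day over 15 days, replicate 2 had the highest IGFBP2, 0.25 above its group's log2 mean, with IGF1 0.29 above its own.

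The other 18 pairs did not pass. Among them IGF1 and IGFBP4 had r = 0.55 (permutation p = 0.0483, adjusted 0.234). GHR had r = 0.15 with IGF1 and -0.06 with IGFALS (adjusted permutation p = 0.891 each), and IGFBP3 had r = 0.05 with IGFALS and 0.21 with IGF1 (adjusted permutation p = 0.891 and 0.87). A p above the threshold does not show that these pairs vary independently.

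The correlations with IGFALS were uncommon on the array, and that of IGF1 with IGFBP2 was less so. Among 7534 tested probe sets of other genes, 2 had an r with IGFALS within groups at least as high as that of IGF1, itself included, or 0.0265%, and 12 had one at least as far below 0 as that of IGFBP2, or 0.159%. For IGF1, 162 of 7532, or 2.15%, lay as far below 0 as IGFBP2. For IGFBP2, 22 of 7533, or 0.292%, lay as far below 0 as IGFALS, and 202, or 2.68%, as far as IGF1. With the dimmer probe set for IGFBP2 the r was -0.68 with IGFALS and -0.55 with IGF1. With the second IGF1 probe set it was 0.48 between IGF1 and IGFALS, which did not pass (adjusted permutation p = 0.207), and -0.28 between IGF1 and IGFBP2 (adjusted permutation p = 0.643). The third IGF1 probe set had r = 0.43 with IGFALS and -0.14 with IGFBP2, and the dimmest -0.23 and 0.16, so the correlations of IGF1 rest on its brightest probe set. Among the 15-day animals alone r was 0.72 for IGF1 with IGFALS, -0.60 for IGFALS with IGFBP2 and -0.47 for IGF1 with IGFBP2 (adjusted permutation p = 0.028, 0.028 and 0.0499). The log2 5' to 3' ACTB ratio had an r of -0.28 with IGFALS and -0.19 with IGF1 within groups, and its part in these correlations was not tested.

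**Figure D4:**
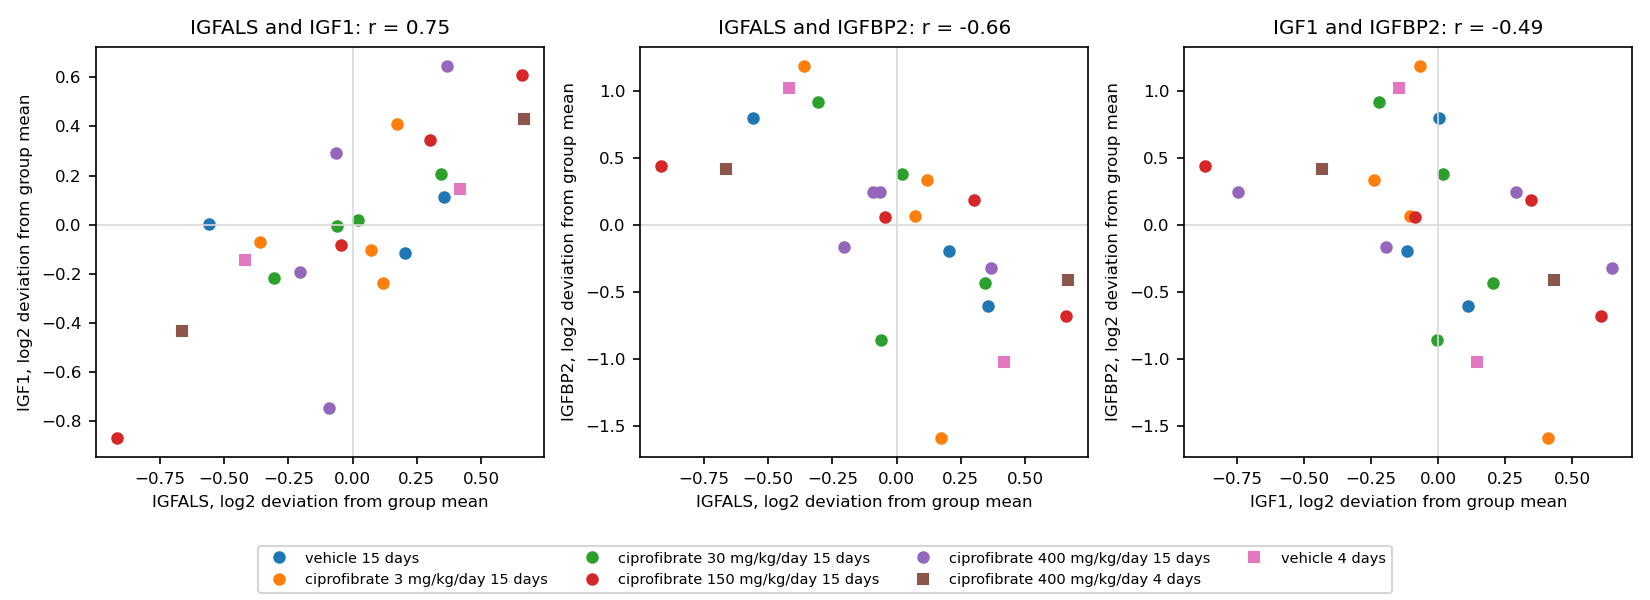
Deviation of each of the 23 animals from its group's mean, on the log2(intensity + 16) scale, for IGFALS and IGF1 (left), IGFALS and IGFBP2 (middle) and IGF1 and IGFBP2 (right); colours are the 7 groups, circles 15-day and squares 4-day animals. Points run from lower left to upper right in the left panel (r = 0.75) and from upper left to lower right in the others (r = -0.66 and -0.49).

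The genes most like IGFALS and IGF1 over all 23 arrays, treatment differences included, were each other. IGF1 had the highest r with IGFALS of all tested genes, 0.87, followed by RDH16, a retinol dehydrogenase, at 0.84, FN1, the plasma and matrix protein fibronectin, at 0.84, ITIH2, a hyaluronan-binding plasma protein, at 0.84 and PZP, a protease inhibitor, at 0.84. The lowest were the proteasome subunit PSMB2 at -0.87, the cytochrome oxidase subunit COX6A1 at -0.86 and HTATIP2 at -0.83. For IGF1 the 5 highest were IGFALS, FGL1 (0.84), FN1 (0.83), RDH16 (0.80) and PZP (0.80), and the 3 lowest PSMB2 (-0.82), the quinone reductase NQO1 (-0.80) and the biliverdin reductase BLVRB (-0.79). These values describe likeness over arrays that share doses, and no test was made of them. Spearman's rho with IGFALS was 0.82 for IGF1 and from 0.58 (RDH16) to 0.68 (FN1) for RDH16, FN1, ITIH2 and PZP. With group means subtracted, r with IGFALS was 0.75 for IGF1 and from 0.39 (FN1) to 0.47 (ITIH2) for those genes. For the 5 highest with IGF1 it ran from 0.46 (RDH16) to 0.75 (IGFALS). At 400 mg/kg/day over 15 days RDH16 differed from vehicle by -1.06 ± 0.23 and FN1 by -1.22 ± 0.23 on the log2 scale (SE).

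Other genes of the pathway were tested with limma, and of 66 measured genes in 4 lists 1 was called at 400 mg/kg/day over 15 days. CEBPB, a transcription factor of the acute phase and of liver metabolism, fell by 0.89 ± 0.22 on the log2 scale (SE, limma adjusted p = 0.0339). It was at 2912 ± 931 (SD, n = 4) at 400 mg/kg/day and at 5216 ± 477 (SD, n = 3) in vehicle animals. Over all 7535 probe sets 2.14% were called in this comparison, so 1 of 66 is near the background. The 66 genes had a median difference of -0.21, against -0.03 over all tested probe sets. CEBPB also fell with dose, by 0.22 ± 0.05 a dose step (SE, limma adjusted p = 0.0102), as the single called gene of 66, where 3.11% of all were called. The call at 400 mg/kg/day ended in 6 of the 7 fits without 1 animal (adjusted p from 0.063 to 0.136), the exception being that without 400 mg/kg/day replicate 3, and that of the slope in 0 of 19.

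Growth hormone receptor signalling held 15 measured genes of 20 listed, of which limma called 0 at 400 mg/kg/day over 15 days (median -0.07), with 1, SOCS2, at an unadjusted p under 0.05. SOCS2, a feedback inhibitor that growth hormone induces, was at 102.1 ± 29.7 (SD, n = 4) in treated and 223.8 ± 65.1 (SD, n = 3) in vehicle animals, with ranges of 81.9 to 146.2 and 152.2 to 279.5. Its difference of -1.01 ± 0.39 did not pass (limma adjusted p = 0.235). The kinase JAK2, which is bound to GHR, differed by 0.25 ± 0.49 and its targets STAT5A and STAT5B by -0.83 ± 0.46 and -0.26 ± 0.45. These 3 had mean intensities of 23.5 to 73.5 in both groups, around the filter's limit, so a difference would have been hard to measure. EGFR, a growth factor receptor that depends on growth hormone in mouse liver, differed by -1.17 ± 0.58 (limma adjusted p = 0.418).

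Of the other IGF ligands, receptors and binding proteins 11 of 22 listed genes were measured and limma called 0 at this dose, with 2 at an unadjusted p under 0.05 and a median difference of -0.32. HTRA1, a secreted protease that can cleave IGF binding proteins, differed by -0.71 ± 0.23 (limma adjusted p = 0.13), IGFBP7 by -0.78 ± 0.35, IGFBP5 by -0.46 ± 0.30 and the fetal growth factor IGF2 by -0.32 ± 0.26. A second HTRA1 probe set differed by -1.42 ± 0.34 (limma adjusted p = 0.0265) and would have been called. The receptors IGF1R, IGF2R and INSR differed by 0.36 ± 0.46, 0.11 ± 0.34 and -0.07 ± 0.25. Probe sets that name GH1 and GH2, the pituitary and placental growth hormones, also passed the filter, so passing it does not establish expression in liver.

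In insulin and IGF receptor signalling 26 of 35 listed genes were measured and limma called 0, with 5 at an unadjusted p under 0.05 (median -0.16). RHEB, the GTPase that activates the kinase mTOR, was at 710.1 ± 290 (SD, n = 4) and 326.7 ± 29 (SD, n = 3), a difference of 1.00 ± 0.30 (limma adjusted p = 0.102), and EIF4EBP1, a translation repressor that mTOR controls, differed by 0.92 ± 0.31 (limma adjusted p = 0.145). FOXO1, the insulin-regulated factor that drives IGFBP1 transcription, differed by -0.59 ± 0.24 (limma adjusted p = 0.286). Among 14 measured liver transcription factors of 21 listed, CEBPB was the single call (median -0.26), and CEBPD differed by -0.91 ± 0.31 (limma adjusted p = 0.158).

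**Figure D5:**
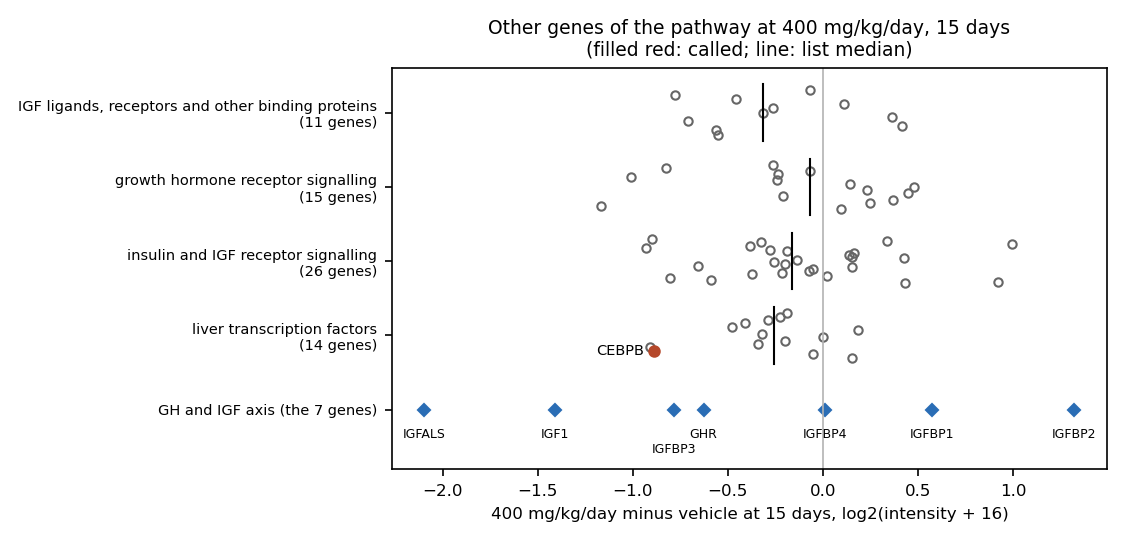
Difference from vehicle at 400 mg/kg/day over 15 days, on the log2(intensity + 16) scale, of the 66 measured other pathway genes in 4 lists (circles; red filled where called, black line at the list median) and of the 7 described genes (blue diamonds). CEBPB at -0.89 is the single called gene of the lists, and the 7 genes, chosen on these dose groups, run from -2.10 to 1.32.

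In the remaining comparisons limma called 0 of the 66 genes. Among the 150 mg/kg/day results 0.677% of all probe sets were called, and CEBPB (-0.86 ± 0.22, limma adjusted p = 0.0851) had the smallest p of the 66. It was followed by CEBPD (-1.01 ± 0.31) and EIF4EBP1 (0.81 ± 0.31). At 30 mg/kg/day 0.0133% of all were called, with MAPK3, FOXO1 and CEBPA differing by -0.95 ± 0.33, -0.62 ± 0.24 and -0.40 ± 0.17. At 3 mg/kg/day 0% of all were called, with FOXO1 at -0.70 ± 0.24, PPARA at 0.50 ± 0.20 and EGFR at -1.42 ± 0.58. At 400 mg/kg/day over 4 days 0.292% were called, with IGFBP7 at -1.32 ± 0.45 (limma adjusted p = 0.344), BCL6 at -0.99 ± 0.42 and the nuclear receptor NR0B2 at 1.10 ± 0.47. The difference between the 15-day and 4-day effects was called for 0% of all probe sets. Its smallest p values were those of NR0B2 (-1.42 ± 0.59), FOXO1 (-0.93 ± 0.40) and BCL6 (1.09 ± 0.52). At an unadjusted p under 0.05 these 5 comparisons held 9, 6, 10, 3 and 3 of the 66. The share of all tested probe sets at that threshold is not given here, so nothing is read from these counts or from the unadjusted counts above. The control genes ACTB and GAPDH, at 400 mg/kg/day over 15 days, were at 2490 ± 244 and 2860 ± 555 (SD, n = 4) and, in vehicle animals, at 1785 ± 546 and 2957 ± 1128 (SD, n = 3). Neither was called, but 1 of them had an unadjusted limma p under 0.05. ACTB was also higher than vehicle at 3 and 30 mg/kg/day, by 0.69 ± 0.21 and 0.54 ± 0.21 (SE, log2), again not called.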

How the data were processed

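The authors deposited MAS5 signals, a linear intensity for each probe set,, per the submitters' processing notes, without version or settings in the sources used here. The trimmed mean (2% at each end) was the same on all arrays, so no scaling was added. Gene names came from the platform's annotation.

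Values were analysed as log2(intensity + 16). Without 67 control probe sets, the 7535 probe sets at or above the 40th percentile of mean log2 value (5.80) were fitted with a means model of the 7 groups in limma 3.58.1 (R 4.3.3), eBayes with an intensity trend, 16 residual and 6.63 prior degrees of freedom. Two-sided p values were adjusted by Benjamini-Hochberg over these probe sets, and an adjusted p under 0.05 was a call. Differences, SEs and tests come from this fit, except that the dimmest IGF1 probe set was fitted with all probe sets. SDs are of a group's intensities. Correlations within groups used numpy 2.4.6 and scipy 1.17.1.

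The 4 lists held 98 pathway genes, of which 80 were named alone by a probe set and 66 measured. A gene was represented by its brightest tested probe set. All called list genes, or the 3 with the smallest p, were named, and for likeness the 5 highest and 3 lowest. Members and lists were chosen with earlier results of these data known. The fit and permutation were tested on simulated data. Alternatives covered pseudocount, filter, scaling, variance options, array weights, the replicate number, separate fits, probe sets, dose score and leaving out each animal. Detection calls were not used here.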

Additional observations from a re-analysis of the deposited data

Results flagged for a closer look

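The second brightest IGF1 probe set had 1 animal far from the others of its group. At 150 mg/kg/day over 15 days replicate 1 was at 92.5 where the others were at 54.7, 53.5 and 50.3, a gap of 0.896 of the group's range, above Dixon's 95% critical value for 4 samples. On the brightest IGF1 probe set the same animal was also the highest, at 1031.3. It was 1 of 52 groups of 4 examined over the 13 probe sets, and chance gives such a gap in about 1 in 20.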

How the results depend on the processing

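Limits lie in the small groups, the dim IGF1, JAK2 and STAT5 probe sets, and human probes on monkey RNA. The count of other pathway genes called at 400 mg/kg/day over 15 days, 1, was 0 without the filter, with arrays scaled to the same median, without the variance trend and with separate fits for each day, 3 with array weights (RHEB and CEBPD besides CEBPB) and 2 where any probe set counted (HTRA1). It was 0 to 1 in the fits without 1 animal. For the slope the count of 1 became 0 with arrays scaled to the same median, 3 with array weights (RHEB and CEBPD added), 2 where any probe set counted (HTRA1 added) and 1 to 2 without 1 animal. With arrays scaled to the same median, 73.2% of all calls at 400 mg/kg/day over 15 days were higher, against 59% in the scaling kept here. The IGFBP4 difference at 400 mg/kg/day over 15 days was -0.17 as a mean of its 2 probe sets. The number of gene pairs that passed was 3, and 1 with the second IGF1 probe set, and 2 to 3 without 1 animal. The probe set swaps and the 15-day subset were chosen after seeing the data. In fits without 1 animal the differences at 400 mg/kg/day over 15 days ranged from -2.38 to -1.92 for IGFALS, -1.63 to -1.16 for IGF1 and 1.02 to 1.72 for IGFBP2.

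Replicate numbers did not pair the animals: deviations of same-numbered animals had correlations from -0.09 to 0.07 in 58 pairs. With a replicate block 1 pathway gene was called at 400 mg/kg/day over 15 days and 1 for the slope, and IGFALS differed by -2.06 at that dose, so the block changed no call. Causes were not tested.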
